A study of Mus musculus with 2 samples.

Results

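Complement is a cascade of plasma and cell-derived proteins, and the 9 genes described here encode its starters, its central components, parts of its amplification loop and 2 of its receptors. They were taken by their symbols, *C1qa*, *C1qb*, *C1qc*, *C3*, *C4b*, *Cfp*, *Cfb*, *C3ar1* and *C5ar1*, and all 9 were among the 27809 genes measured. Their levels were read in immune cells of the mouse heart, by the group a cell came from and by classes of cells that were gated on other genes.

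Hearts of male C57BL/6N mice, 8 weeks of age, were studied 1 week after transverse aortic constriction (TAC), a narrowing of the aorta that loads the left ventricle with pressure, or after sham surgery. The 5 groups were WT sham, CD3ε-/- sham, WT TAC, CD3ε-/- TAC and CD8+T cell-depleted TAC. The CD3ε-/- mice, on a C57BL/6 background, lack a chain of the T cell receptor complex. The last group, labelled as WT mice, received an antibody to CD8 from the day of TAC on. CD45+ cells, the leukocytes, of digested hearts were marked with a hashtag per group and sequenced as 1 pooled library by TAS-Seq after capture with BD Rhapsody, which takes up the RNA of single cells on barcoded beads. Each group was 1 sample, the number of hearts in each is not given in the sources used here, and groups were therefore compared by their values without a test.

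The classical pathway starts when C1q, built from the A, B and C chains that *C1qa*, *C1qb* and *C1qc* encode, binds antibody, dying cells or other targets, which leads to the cleavage of C4 and then C3. The alternative pathway amplifies C3 cleavage through factor B (*Cfb*), and properdin (*Cfp*) stabilizes its enzyme. Fragments released on the way, C3a and C5a, act on the receptors that *C3ar1* and *C5ar1* encode. In tissues, macrophages are a known local source of C1q, whereas most plasma complement comes from the liver.

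The *C1q* genes lie side by side on chromosome 4 of GRCm38 within 18719 bases, *C1qb* at 136880126 to 136886200, *C1qc* at 136889801 to 136892936 and *C1qa* at 136895916 to 136898844. *C4b* (34728139 to 34743902), *Cfb* (34856374 to 34862514) and *C3* (57203967 to 57228136) are on chromosome 17. *C3ar1* is on chromosome 6, *C5ar1* on chromosome 7 and *Cfp* on the X chromosome. RefSeq promoter sequences of GRCm38.p6 were held for 6 of the 9 genes. The 250 bases before the start of *C1qb* (chr4:136886201-136886450), of *C1qc* (chr4:136892915-136893164) and of *C3* (chr17:57228137-57228386), all on the minus strand, are shown because the C1q genes were mostly read in the same cells and *C3* had its highest levels in other classes. The stretch of *C1qc* overlaps the gene as placed above, which ends at 136892936. Its distances are thus from the start used for the promoters, not from that end. Capitals mark matches on either strand to GAGGAA (PU.1), TGCTGA (MAF), TTGCNNAA (C/EBP) and GAAA, NN and GAAA joined (IRF).
*C1qb*: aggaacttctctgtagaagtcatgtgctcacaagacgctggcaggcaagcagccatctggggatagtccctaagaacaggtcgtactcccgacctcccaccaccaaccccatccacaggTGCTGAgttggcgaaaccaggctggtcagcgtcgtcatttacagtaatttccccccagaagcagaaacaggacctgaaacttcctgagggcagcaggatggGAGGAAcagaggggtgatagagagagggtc
*C1qc*: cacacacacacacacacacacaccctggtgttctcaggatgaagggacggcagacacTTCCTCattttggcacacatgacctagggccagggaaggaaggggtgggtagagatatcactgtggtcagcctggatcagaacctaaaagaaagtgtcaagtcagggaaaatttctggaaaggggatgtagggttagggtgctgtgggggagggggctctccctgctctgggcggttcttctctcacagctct
*C3*: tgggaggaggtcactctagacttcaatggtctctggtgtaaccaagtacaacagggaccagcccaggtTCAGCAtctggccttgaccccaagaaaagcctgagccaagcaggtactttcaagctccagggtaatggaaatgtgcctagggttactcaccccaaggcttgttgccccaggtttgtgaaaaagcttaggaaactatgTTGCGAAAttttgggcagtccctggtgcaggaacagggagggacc
GAGGAA was matched 30 bases before the start of *C1qb* and, as TTCCTC, 193 bases before that of *C1qc*, and 23.25% of all 32851 promoters of this length held it. TGCTGA was matched 131 bases before *C1qb* and, as TCAGCA, 182 bases before *C3*, with a share of 16.08% of all promoters. *C3* alone of these 3 held TTGCNNAA, 45 bases before its start, with a share of 9.564%, and none of the 3 held the IRF letters, which 2.977% held. No matches overlapped, and a match is a description of the letters.

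After the filters, 5263 cells remained, 1000, 835, 1615, 919 and 894 in the order of groups above, with totals of 91899777 to 208758777 reads. Monocytes and macrophages were gated on at least 200 CPM of *Csf1r*, where CPM are a gene's reads scaled to an equal total of reads, and 2000 CPM of *Lyz2* in the cell and numbered 565, 482, 1089, 664 and 606. They were parted in turn into an *Ace* class (from 200 CPM), a *Ly6c2* class (from 1000 CPM), a *Cd209a* class (from 200 CPM), a *Lyve1* class (from 100 CPM), and the rest at 1000 CPM of *Ccr2* into *Ccr2*-high and *Ccr2*-low cells. B cells had at least 1000 CPM of *Cd79a*. Of the markers listed for a class, 4 of 4 were highest in the *Ace* class and 5 of 5 in the *Lyve1* class, but 2 of 4 in the *Ly6c2* class and 2 of 5 in the *Cd209a* class, so these are called by their gating gene. Of the monocytes and macrophages, 403 had *Ccr2* within 1.5 times of the limit. *Cd3e*, the gene knocked out, had 3.73 and 5.64 CPM in the CD3ε-/- groups and 10.8 to 17.8 CPM in the others, and its neighbour *Cd3g* was read in 3 and 1 cells against 32 to 53. Cells with reads of *Cd3g* and of *Cd8a* or *Cd8b1* numbered 0 of 835 and 0 of 919 in the CD3ε-/- groups, 11 of 1615 in WT TAC (0.681%, 95% Clopper-Pearson interval 0.340 to 1.22) and 4 of 894 in the group labelled CD8+T cell-depleted TAC (0.447%, 0.122 to 1.14), so a depletion was not detectable at this depth. Summed CPM of 5 genes that respond to tissue dissociation (*Fos*, *Jun*, *Egr1*, *Hspa1a* and *Hspa1b*) were 10145 and 8230 in the monocytes and macrophages of the sham groups and 3918 to 4941 in the TAC groups, and their part in the TAC to sham ratios below was not tested.

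The C1q genes were the starters of the classical pathway with reads in most macrophages, and their levels differed widely between classes of cells. Over all groups, the level of *C1qa* was 4772 CPM in the *Lyve1* class, 3635 CPM in the *Ccr2*-low class, 1969 CPM in the *Ccr2*-high class, 561 CPM in the *Ly6c2* class, 558 CPM in the *Cd209a* class and 201 CPM in the *Ace* class. It was 27.5 CPM in the gated B cells, which should lack the gene. The level of *C1qb* was 3599, 3150 and 1994 CPM and that of *C1qc* 4977, 3747 and 1874 CPM in the *Lyve1*, *Ccr2*-low and *Ccr2*-high classes. The order of these 3 classes was thus the same for each chain, and this order also held with gate limits halved or doubled and with the mean over cells.

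**Figure D1:**
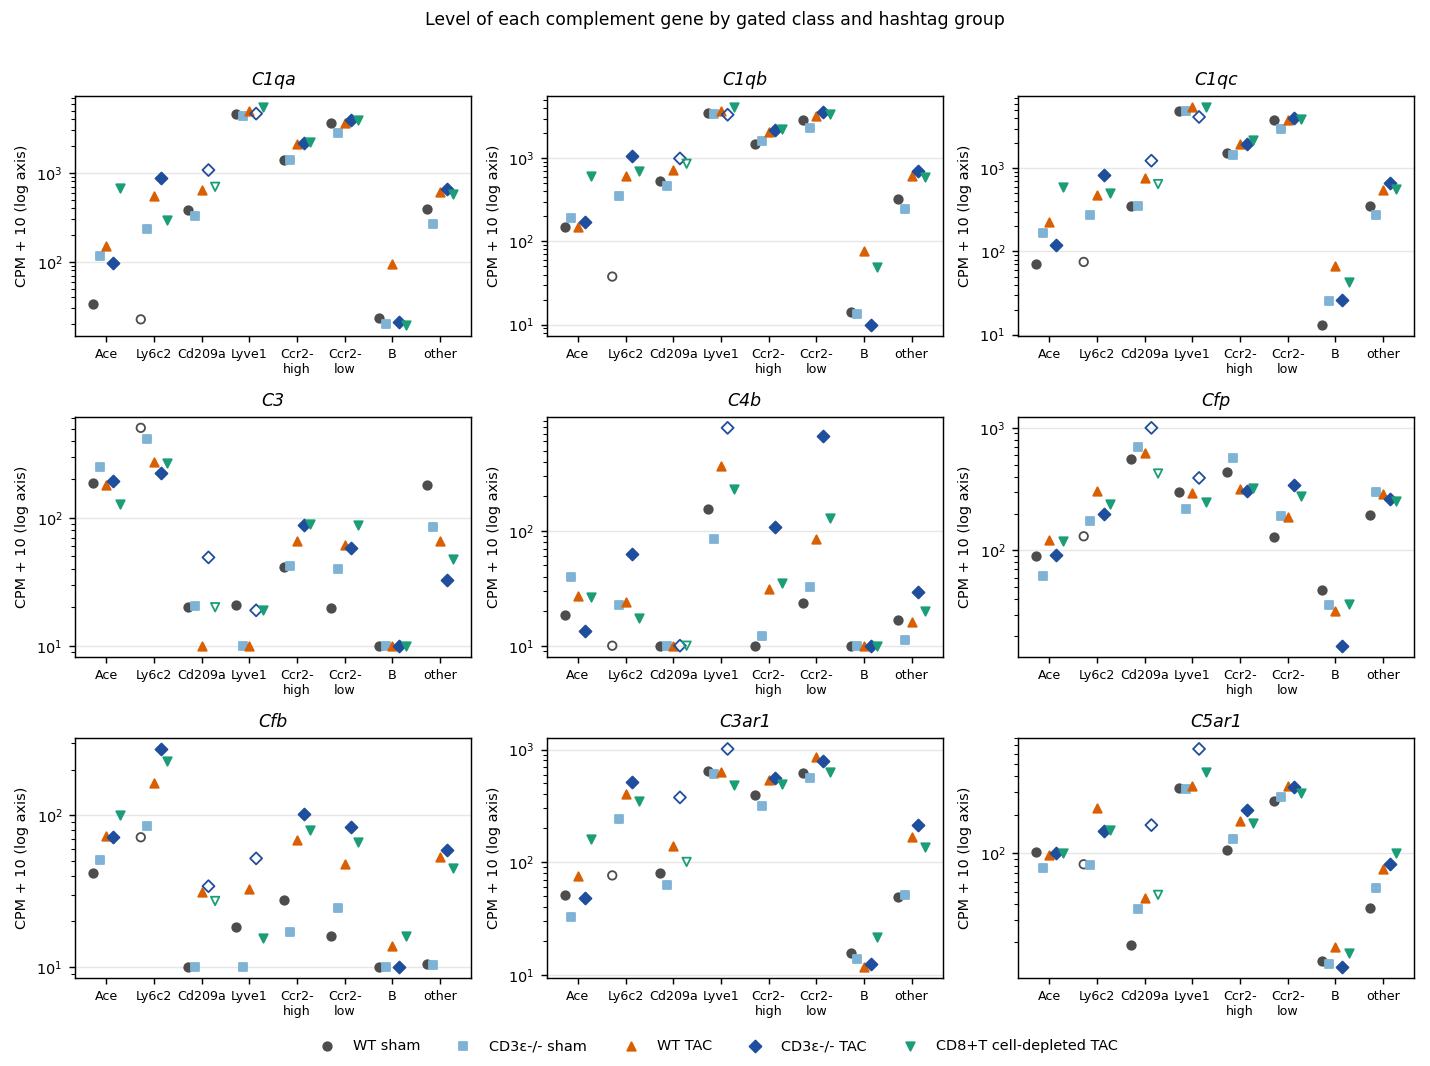
Level of each of the 9 genes (CPM + 10, log axis) by gated class, with 1 marker for each group; open markers are sums of fewer than 20 cells, which were not compared. The C1q genes are highest in the Lyve1 and Ccr2-low classes, C3 in the Ly6c2 and Ace classes, Cfb in the Ly6c2 class and Cfp in the Cd209a class.

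The 3 chains were read together or not at all in most cells. Of 3406 monocytes and macrophages, 2369 had reads of all 3 genes and 759 of none. The lowest counts above 0 were 17, 18 and 15 reads for *C1qa*, *C1qb* and *C1qc*, so a cell without reads may have had a few. All 3 were read in 201 of 202 cells of the *Lyve1* class (99.5%), in 90.8% of *Ccr2*-low and 68.5% of *Ccr2*-high cells, in 88 of 352 cells of the *Ly6c2* class and in 10.4% of the *Ace* class. Among 430 B cells, 3 had reads of all 3 genes (0.698%). With each cell thinned to the same number of reads, the shares were 99.4%, 91.1% and 68.9% in the first of these classes and 10.7% in the *Ace* class, and 1.08% in B cells, whose median depth was 46798 reads against 77810 to 124646 reads in these classes. Correlations of log2 levels between the 3 genes across the 3406 cells were 0.906 to 0.932, as a description of cells that share a library.

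**Figure D2:**
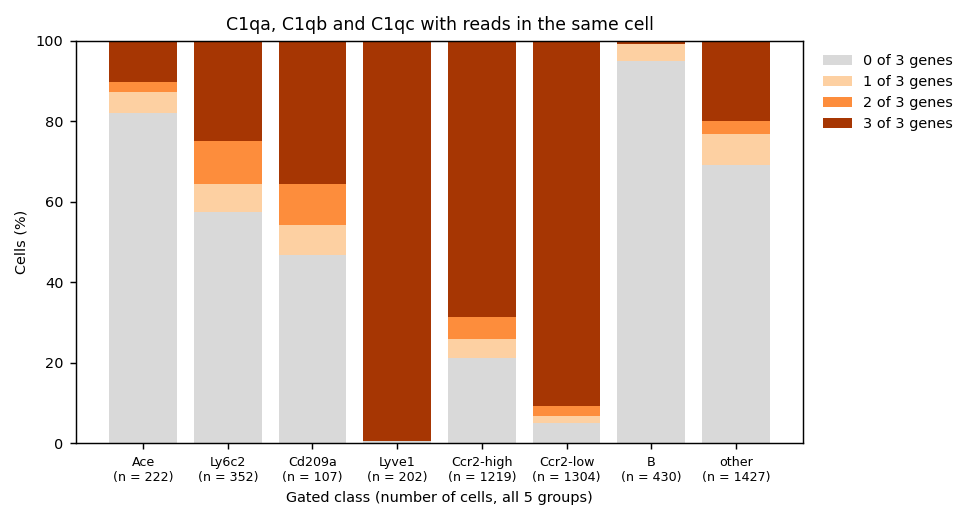
Share of cells (%) with reads of 0, 1, 2 or 3 of C1qa, C1qb and C1qc in each gated class, over all 5 groups. Cells with 3 genes fill nearly the whole Lyve1 class (99.5%), and cells with none fill most of the Ace class (82.0%).

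Over all monocytes and macrophages, the level of *C1qa* was 2504 CPM in WT sham, 1792 CPM in CD3ε-/- sham, 2391 CPM in WT TAC, 2357 CPM in CD3ε-/- TAC and 2370 CPM in the group labelled CD8+T cell-depleted TAC. The 95% Poisson interval of the lowest was 1781 to 1803 CPM, which covers counting error of reads only. CD3ε-/- sham was thus the low group and WT sham the high group, with the 3 TAC groups close together between them. The level of *C1qb* was 2112, 1670, 2189, 2242 and 2244 CPM and that of *C1qc* 2686, 1896, 2364, 2302 and 2397 CPM in the same order, with CD3ε-/- sham lowest for both. Of the reads of the 3 genes together, *C1qa* took 33.4% to 34.4%, *C1qb* 28.9% to 32.5% and *C1qc* 33.4% to 36.8% in the 5 groups, so that their proportions stayed close. Cells with all 3 made up 77.2%, 70.5%, 69.1%, 65.8% and 66.7% of the monocytes and macrophages, most in WT sham. No C1q gene passed a ratio of 1.5 (with 10 CPM added to both levels) in any of the 5 comparisons over these cells.

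The class makeup moved against the levels within classes. From WT sham to WT TAC, the *Lyve1* class went from 13.3% to 4.68% of the monocytes and macrophages, *Ccr2*-low cells from 50.1% to 35.2% and *Ccr2*-high cells from 25.5% to 43.3%. When the difference of *C1qa* between WT TAC and WT sham (-113 CPM) was split, class shares gave -501 CPM and levels within classes gave 388 CPM. In CD3ε-/- mice the parts were -215 and 780 CPM. Within *Ccr2*-high cells, *C1qa* was 1388 CPM in WT sham and 1380 CPM in CD3ε-/- sham against 2116, 2151 and 2214 CPM in the TAC groups, so that every TAC group lay above both sham groups. In the *Ly6c2* class, all 3 chains were read in 2 of 20 cells of CD3ε-/- sham, 22 of 90 of WT TAC, 42 of 119 of CD3ε-/- TAC and 22 of 106 of the group labelled CD8+T cell-depleted TAC. In WT sham, 0 of 17 cells of this class had them, too few cells to compare.

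**Figure D3:**
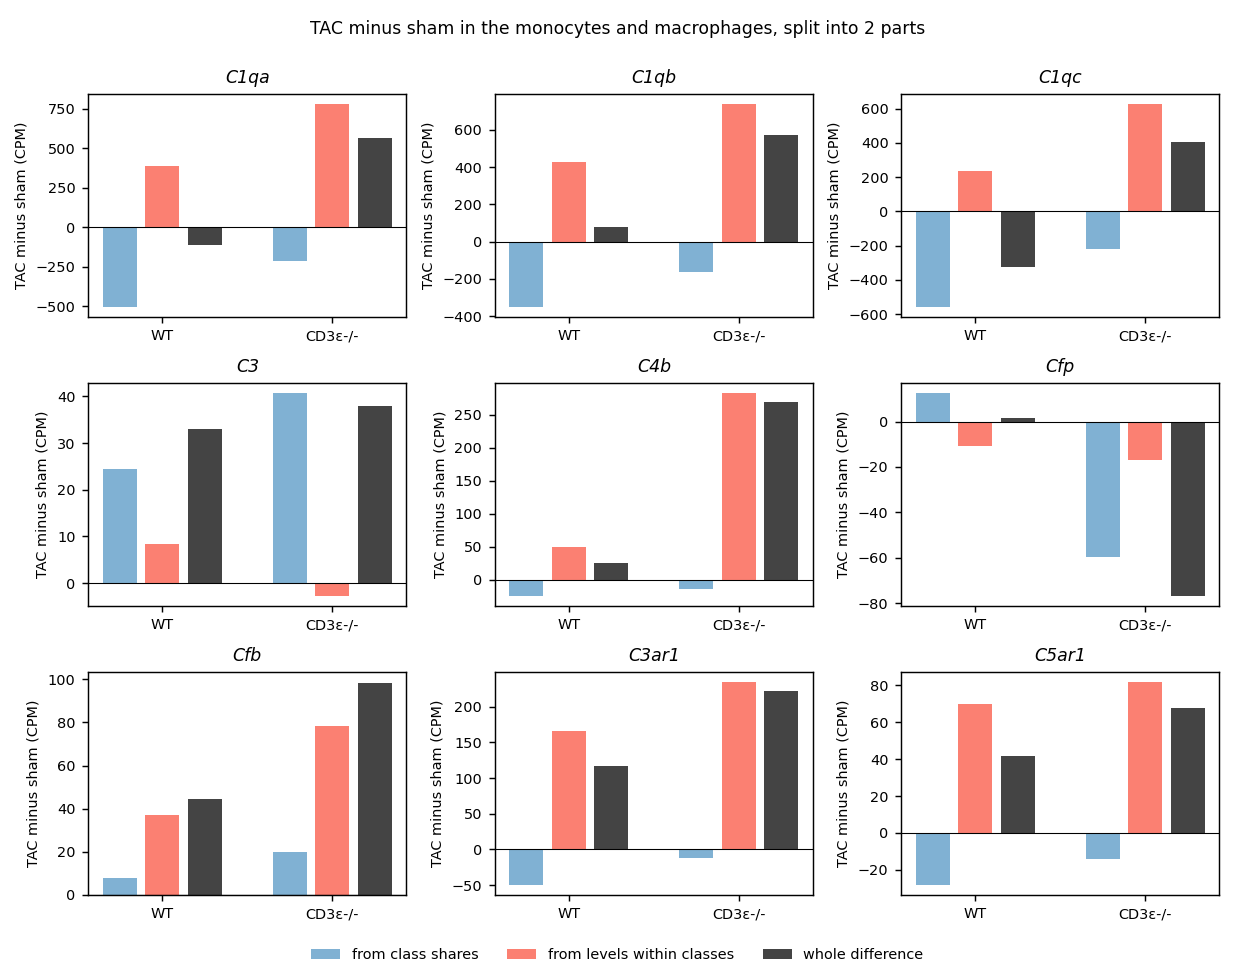
Difference in level between TAC and sham (CPM) over the monocytes and macrophages of WT and CD3ε-/- mice, split into the part from class shares (blue) and the part from levels within classes (red), with the whole difference in dark grey. For the C1q genes the parts have opposite signs, whereas for C3 most of the difference comes from class shares.

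Past C1q, the classical pathway acts on C4 and the pathways meet at C3. *C4b* had the widest range over groups. Its level in the monocytes and macrophages was 24.2 CPM in WT sham, 15.8 CPM in CD3ε-/- sham, 49.5 CPM in WT TAC, 284 CPM in CD3ε-/- TAC and 58.4 CPM in the group labelled CD8+T cell-depleted TAC. The CD3ε-/- TAC group stood apart from the other 4. Its interval of 281 to 287 CPM covers counting error of reads only, not the spread between cells or hearts. Cells with reads numbered 31, 16, 96, 112 and 66, and after thinning they made up 5.89%, 3.33%, 9.02%, 17.1% and 9.61% of the cells. Among B cells they were 0 of 278, which by counting error alone allows a share of up to 1.08%. The levels were highest in the *Lyve1* and *Ccr2*-low classes, and in *Ccr2*-low cells they were 13.4, 22.4, 74.6, 655 and 120 CPM. In the *Lyve1* class *C4b* was at 146, 75.1, 360 and 224 CPM in WT sham, CD3ε-/- sham, WT TAC and the group labelled CD8+T cell-depleted TAC, and CD3ε-/- TAC had 15 cells of this class, too few to compare. Of the difference of *C4b* between TAC and sham, levels within classes gave 49.1 CPM of 25.3 CPM in WT and 282 CPM of 268 CPM in CD3ε-/- mice, against class shares of the opposite sign.

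A few cells carried many of the *C4b* reads. The 10 cells with the most held 52.0% of them in CD3ε-/- TAC and 37.9% in WT TAC. In CD3ε-/- TAC, 41 of 664 monocytes and macrophages had at least 200 CPM of *Saa3*, an acute phase gene, and held 61.5% of the *C4b* reads but 11.7% of all reads, at 1499 CPM against 124 CPM in the other cells. Such cells numbered 2, 1, 8 and 15 in the other groups. Without them, the log2 ratio of *C4b* between CD3ε-/- TAC and WT TAC was 1.18 in place of 2.31. Reads of *C4b* are uncertain, because *C4a*, a near-identical pseudogene on the same chromosome, could share them, and *C4a* had at most 8.24 CPM in any class and group.

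*C3*, the component that all pathways cleave, had its highest levels in the classes in which C1q was low. Over all groups it was 259 CPM in the *Ly6c2* class and 177 CPM in the *Ace* class, and 59.2, 45.6, 8.78 and 6.10 CPM in the *Ccr2*-high, *Ccr2*-low, *Cd209a* and *Lyve1* classes. Over all monocytes and macrophages the level was 41.2, 62.5, 74.2, 101 and 109 CPM, lowest in WT sham and highest in the TAC groups. After thinning, cells with a *C3* read made up 10.1%, 14.3%, 22.6%, 30.8% and 27.9%, and 0 of 278 B cells had one. Within the *Ly6c2* class, however, CD3ε-/- sham had 403 CPM and the TAC groups 264, 213 and 261 CPM. Of the difference between WT TAC and WT sham (33.0 CPM), class shares gave 24.5 CPM, and in CD3ε-/- mice they gave 40.7 CPM of 38.0 CPM. This split also used sums of fewer than 20 cells, such as the 17 *Ly6c2* cells of WT sham. In WT, levels in that class gave -14.4 CPM, against 9.64 CPM in *Ccr2*-high and 15.1 CPM in *Ccr2*-low cells. With equal class makeup over the *Ace*, *Ccr2*-high and *Ccr2*-low classes, *C3* was at 34.8 CPM in WT sham and 64.1 CPM in WT TAC. In CD3ε-/- mice it was then at 49.1 CPM in sham and 74.4 CPM in TAC.

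Outside the monocytes and macrophages, *C3* was read in the sham groups and in WT TAC mostly in cells that carried a fibroblast marker. In the other CD45+ cells of WT sham its level was 171 CPM, and 13 of these 342 cells, with at least 100 CPM of *Dcn*, a matrix gene of fibroblasts, held 97.8% of the reads. Such cells held 92.6% of the *C3* reads of the other CD45+ cells in CD3ε-/- sham, 64.9% in WT TAC, 4.50% in CD3ε-/- TAC and 13.8% in the group labelled CD8+T cell-depleted TAC. Without such cells the level was 3.99 CPM in WT sham, 5.95 CPM in CD3ε-/- sham, 19.9 CPM in WT TAC, 22.7 CPM in CD3ε-/- TAC and 33.5 CPM in the group labelled CD8+T cell-depleted TAC. The order of the groups was thereby turned, since with all other CD45+ cells WT sham was highest. Over all CD45+ cells, with the *Dcn* cells included, the log2 ratio of *C3* between WT TAC and WT sham was -0.38. Without the *Dcn* cells, its level over all CD45+ cells was 25.1 CPM in WT sham and 55.8 CPM in WT TAC.

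*Cfb*, which supplies the protease of the alternative C3 convertase, was low in both sham groups. Its level over the monocytes and macrophages was 12.7 CPM in WT sham, 14.6 CPM in CD3ε-/- sham, 57.4 CPM in WT TAC, 113 CPM in CD3ε-/- TAC and 89.2 CPM in the group labelled CD8+T cell-depleted TAC. All 3 TAC groups lay above both sham groups. Cells with a read after thinning made up 3.58%, 5.23%, 16.8%, 32.9% and 24.9%, against 0.719% of B cells. In the split over all classes, unlike for *C3*, most of the difference of *Cfb* between TAC and sham came from levels within classes. These gave 37.0 of 44.7 CPM in WT and 78.6 of 98.5 CPM in CD3ε-/- mice. The *Ly6c2* class had the highest level, at 74.8 CPM in CD3ε-/- sham and 153, 264 and 218 CPM in the TAC groups, and the *Ccr2*-low class had 5.94, 14.3, 38.0, 74.3 and 56.6 CPM. *Gm20547*, an annotated gene whose pattern was most like that of *Cfb*, overlaps *Cfb* on the same strand, so that reads of these cannot be told apart.

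*Cfp*, the gene for properdin, was led by a class that the other 8 genes were not. Over all groups its level was 624 CPM in the *Cd209a* class, 349 CPM in *Ccr2*-high cells and 90.2 CPM in the *Ace* class. Over the monocytes and macrophages it was 267, 357, 269, 280 and 271 CPM, with CD3ε-/- sham alone apart from the rest. Cells with a *Cfp* read after thinning made up 37.5%, 43.9%, 51.2%, 52.7% and 52.1%, against 6.12% of B cells, so the share was lowest in WT sham where the level was not apart. In *Ccr2*-low cells the order was another, with 118 CPM in WT sham, 181 CPM in CD3ε-/- sham, 177 CPM in WT TAC, 332 CPM in CD3ε-/- TAC and 268 CPM in the group labelled CD8+T cell-depleted TAC. Without the cells with at least 200 CPM of *Saa3*, of which these last 2 groups had 24 and 9 in this class, the levels of *Cfp* were 116, 181, 171, 187 and 153 CPM, and CD3ε-/- TAC no longer stood apart.

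The receptors had their highest levels in the *Lyve1* and *Ccr2*-low classes, as the C1q genes did. *C3ar1*, the receptor for C3a, was at 719 CPM in *Ccr2*-low cells, 661 CPM in the *Lyve1* class, 480 CPM in *Ccr2*-high cells, 400 CPM in the *Ly6c2* class, 117 CPM in the *Cd209a* class and 62.9 CPM in the *Ace* class. *C5ar1*, the receptor for C5a that draws leukocytes to sites of complement activation, was at 389, 299, 163, 153, 39.0 and 85.9 CPM in the *Lyve1*, *Ccr2*-low, *Ccr2*-high, *Ly6c2*, *Cd209a* and *Ace* classes. By group, the level of *C3ar1* over the monocytes and macrophages was 456, 359, 573, 581 and 465 CPM, so that the group labelled CD8+T cell-depleted TAC lay near WT sham and below the other TAC groups. After thinning, *C3ar1* was read in 66.1%, 62.9%, 74.3%, 72.9% and 73.1% of the cells, against 1.80% of B cells. The level of *C5ar1* was 177, 168, 219, 235 and 199 CPM, with each TAC group above both sham groups. The share of cells with a *C5ar1* read cannot be set beside those of the other genes. Its counts reached down to 1 read per cell, whereas the lowest count above 0 of the other 8 genes was 6 to 18 reads, as it was 6 or more for 590 of the 27809 genes.

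Ratios of groups were set against a limit of 1.5 with 10 CPM added, for genes with at least 20 CPM in 1 of the compared groups. From WT sham to WT TAC, 3 of 9 genes were higher, where 3.47% of all 6997 genes were: *Cfb* 2.97 times, *C4b* 1.74 times and *C3* 1.64 times. From CD3ε-/- sham to CD3ε-/- TAC, 4 of 9 were higher, where 5.45% of all genes were, with *C4b* at 11.4 times, *Cfb* at 4.997 times, *C3ar1* at 1.60 times and *C3* at 1.52 times. From WT TAC to CD3ε-/- TAC, 2 of 9 were higher, *C4b* at 4.94 times and *Cfb* at 1.83 times, where 1.04% of all genes were. *Cfb* in both sham groups and *C4b* in CD3ε-/- sham were under 20 CPM, so there they were kept only through their TAC levels.

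No gene of the 9 passed the limit in the other comparisons, and none was lower in any of the 5, where 2.74% of all genes were lower in WT TAC than in WT sham, 3.48% in CD3ε-/- TAC than in CD3ε-/- sham and 0.682% in CD3ε-/- TAC than in WT TAC. Over all CD45+ cells, 7 of the 9 were higher in CD3ε-/- TAC than in CD3ε-/- sham (5.59% of all genes), where the share of monocytes and macrophages among the cells also differed, at 72.3% and 57.7%. All genes gave 1.39% higher and 1.67% lower from WT sham to CD3ε-/- sham, and 0.595% higher and 0.247% lower from WT TAC to the group labelled CD8+T cell-depleted TAC. *Cfb* came nearest in the latter, at 1.47 times. The 5 comparisons share WT TAC or a sham group, so they are not independent of each other. The median log2 ratio of the 9 genes was 0.29 for TAC in WT and 0.47 for TAC in CD3ε-/- mice, and that of all genes was 0.02 and 0.05.

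**Figure D4:**
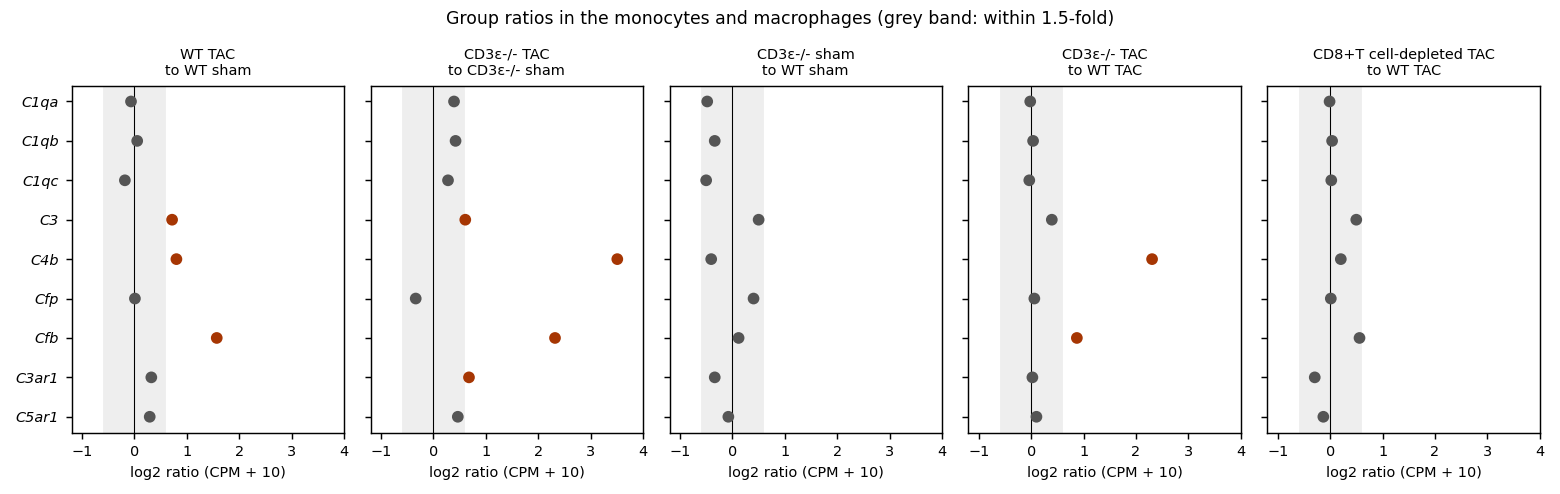
Log2 ratio of the levels (CPM + 10) of the 9 genes over the monocytes and macrophages in 5 comparisons of groups; the grey band spans ratios within 1.5 times and points outside it are brown. C4b and Cfb lie outside it in 3 of the comparisons, and the C1q genes in none.

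Within *Ccr2*-high cells, 5 of 9 genes were higher in WT TAC than in WT sham (6.28% of all genes), namely *C1qa*, *C3*, *C4b*, *Cfb* and *C5ar1*. In CD3ε-/- mice, *C3ar1* was higher in addition to these 5 (8.47% of all genes) and *Cfp* was lower (4.14%). Within *Ccr2*-low cells, *C3*, *C4b* and *Cfb* were higher in WT TAC (6.74%), and *C1qb*, *C4b*, *Cfp* and *Cfb* in CD3ε-/- TAC (8.22%). In *Ccr2*-high cells, *C4b* and *Cfb* were under 20 CPM in both sham groups. In *Ccr2*-low cells, so were *C3*, *C4b* and *Cfb* in WT sham and *Cfb* in CD3ε-/- sham. There these genes were kept only through their TAC levels, and counts that rest on them are not read as support. Between CD3ε-/- TAC and WT TAC, *C4b*, *Cfp* and *Cfb* were higher in *Ccr2*-low cells (2.83%) and *C4b* in *Ccr2*-high cells (1.03%). Also in *Ccr2*-low cells, *C4b* was higher in the group labelled CD8+T cell-depleted TAC than in WT TAC (2.54%), and *C3* was higher in CD3ε-/- sham than in WT sham (5.09%), which turned to a log2 ratio of -0.55 with gate limits doubled. Between these sham groups, *C3* was kept only through its CD3ε-/- level. Without *Saa3* cells, the log2 ratio of *Cfp* in *Ccr2*-low cells was 0.12 between CD3ε-/- TAC and WT TAC and 0.044 between CD3ε-/- TAC and CD3ε-/- sham, and that of *C4b* between the group labelled CD8+T cell-depleted TAC and WT TAC was 0.18, all within 1.5 times. That of *C4b* between CD3ε-/- TAC and WT TAC was 1.55 in *Ccr2*-low and 0.93 in *Ccr2*-high cells. In the *Ly6c2* class, with 119 and 90 cells, the C1q genes, *C4b* and *Cfb* were higher in CD3ε-/- TAC than in WT TAC (5.43%) and *Cfp* and *C5ar1* were lower (5.23%). *C4b* was under 20 CPM in WT TAC in this class, so it was kept only through CD3ε-/- TAC. In the same class, *C1qa* was lower in the group labelled CD8+T cell-depleted TAC, with 106 cells, than in WT TAC (5.59%), which turned to a log2 ratio of 0.48 with gate limits doubled. Against CD3ε-/- sham, with 20 cells of this class, 7 of 9 genes were higher in CD3ε-/- TAC (20.9%) and *C3* was lower (17.5%). As 38.4% of all genes passed the limit in either direction there, this count is not read as a result. In the *Ace*, *Cd209a* and *Lyve1* classes, 17.8% to 41.8% of all genes passed the limit in either direction, and no member count is read there.

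Genes that were not members but were most like a member over 36 sums of class and group of at least 20 cells were sought among 7062 genes by the correlation of log2 levels, which describes sums from 1 library. For *C1qa* they were *Cttnbp2nl* (0.97), *Dab2* (0.95) and *Entpd1* (0.95), and for *C3* they were *Vcan* (0.90), *Osm* (0.89) and *Tnfaip2* (0.88). For *C1qb* they were *Hexa* (0.97), *Rgs10* (0.96) and *Adgre1* (0.96), and for *C1qc*, *Cttnbp2nl* (0.96) and *Camk1* (0.95) were among them. For *C4b* they were *Fcna* (0.91), *Ltc4s* (0.90) and *Ednrb* (0.84), and for *Cfp* *Cysltr1* (0.94), *Rps27l* (0.92) and *Eps8* (0.92). For *Cfb* they were *Gm20547* (0.98), *Irf7* (0.93), a transcription factor of the interferon response, and *Slfn1* (0.92). The receptors shared *Adap2*, at 0.94 for *C3ar1*, beside *Ms4a7* (0.94) and *Akr1a1* (0.93), and at 0.96 for *C5ar1*, beside *Apoe* (0.95) and *Itgb5* (0.95). Among the members, *C1qa* and *C1qc* were alike at 0.99 and *C3* and *Cfb* at 0.73, while *C1qa* and *C3* had 0.02.

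Of 46 other complement genes, 39 were measured and 15 reached 50 CPM in a sum of class and group. None of the 5 measured genes of the classical list (*C1ra*, *C1rb*, *C1s1*, *C2* and *C4a*) and none of the 6 of the terminal list did. *Fcna*, the gene for ficolin A, a starter of the lectin pathway, was at 16.8, 5.22, 12.4, 124 and 30.7 CPM over the monocytes and macrophages. *Vsig4*, a macrophage receptor for C3 fragments, was at 24.1, 7.71, 10.7, 106 and 9.81 CPM. Both stood apart in CD3ε-/- TAC, as *C4b* did. The 41 *Saa3* cells of that group held 51.8% of its *Fcna* reads, and without them the level was 67.7 CPM, while in the group labelled CD8+T cell-depleted TAC it was 13.2 CPM without such cells. *Vsig4* was read in 4 of the 41 cells and in 12 of the other 623 cells of CD3ε-/- TAC, and its level without *Saa3* cells was 91.0 CPM. *Itgam*, part of complement receptor 3, was at 375, 505, 617, 852 and 572 CPM. In this list, 1 gene (*Itgam*) was higher in WT TAC than in WT sham among 11 that passed the floor of 20 CPM (3.47% of all genes), and *Vsig4* and *Colec12* were among those lower. In CD3ε-/- TAC, 3 of 12 (*Fcna*, *Vsig4* and *Itgam*) were higher than in CD3ε-/- sham (5.45%) and 1 (*Itgax*) was lower (3.48%). Between the sham groups, 1 of 10 (*Itgax*) was higher in CD3ε-/- mice (1.39%), and *Vsig4* and *Colec12* were among those lower. Against WT TAC, 2 of 12 (*Fcna* and *Vsig4*) were higher in CD3ε-/- TAC (1.04%), and in the group labelled CD8+T cell-depleted TAC 1 of 11 (*Fcna*) was higher (0.595%) and 1 (*Itgax*) was lower (0.247%). In each comparison that called *Fcna* or *Vsig4*, the gene passed the floor of 20 CPM only through the group where it was high. Counts that rest on these 2 genes are therefore not read as support.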

How the data were processed

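The deposited matrix, labelled DBEC (error-corrected), held counts of reads per gene and cell barcode without normalization, and the authors assigned barcodes to hashtags. For 8 of the 9 genes, all but *C5ar1*, no count above 0 was under 6 reads. A cell without a read of these may therefore have had a few. Shares of cells with reads count only cells that reached that lowest count. The submitters' processing notes name cutadapt 2.10, Bowtie2 2.4.2 and the build GRCm38. The 48 columns without a hashtag (8) or called doublets by the authors (40) were not used, and no further doublet caller was run. Barcodes were kept from 500 genes upwards, and up to 0.4 of their reads could be mitochondrial. Reads were summed per class and group and scaled to CPM. Thinned cells had 39057 reads, and shallower cells were left out. Sums of fewer than 20 cells were not compared, but the splits into class shares and levels used every class. Intervals (95%) and floors cover counting error only. Python 3.11.15 with numpy 2.4.6, scipy 1.17.1 and pandas was used, and the ratio step was tested on simulated data. The members, gene lists and gates were chosen with earlier results of these data known. Named genes were the 9 members, listed complement genes with 50 CPM in a sum, and the 3 genes most like each member, of which some are not reported here. Cells of *Saa3* and *Dcn* were set apart after the data were seen.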

Additional observations from a re-analysis of the deposited data

Results flagged for a closer look

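TAC went with opposite signs of the log2 ratio in WT and CD3ε-/- mice for 3 genes over the monocytes and macrophages, and the difference was not tested, since each group was 1 sample. The log2 ratio of TAC to sham of *C1qa* was -0.07 in WT and 0.39 in CD3ε-/- mice, a difference of 0.46. That of *C1qc* was -0.18 and 0.28, also a difference of 0.46. That of *Cfp* was 0.01 and -0.34, a difference of -0.35. All of these ratios lay within 1.5 times, and that of *Cfp* in WT was near 0, with levels of 267 and 269 CPM whose counting intervals overlapped, so its sign says little. The signs were opposite in 17 of 19 alternatives for *C1qa*, 16 of 19 for *C1qc* and 19 of 19 for *Cfp*, whose log2 ratio in WT reached down to 0.0011. With equal class makeup, over the 3 classes with at least 20 cells in every group (*Ace*, *Ccr2*-high and *Ccr2*-low), none of the 3 genes had opposite signs. *C1qa* was then at 2203 CPM in WT sham and 2595 CPM in WT TAC, and at 1867 and 2713 CPM in CD3ε-/- mice. *C1qc* was at 2379 and 2552 CPM in WT and at 1950 and 2660 CPM in CD3ε-/- mice, and *Cfp* at 268 and 234 CPM and at 353 and 291 CPM.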

How the results depend on the processing

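Over the monocytes and macrophages, 19 alternatives were tried, of which 4 (cells with *Saa3*, cells with *Dcn* or the 10 cells with most reads left out, and *C5ar1* counts under 6 set to 0) were chosen after seeing the data. *C4b* and *Cfb* passed 1.5 times in CD3ε-/- TAC against CD3ε-/- sham, and *C4b* in CD3ε-/- TAC against WT TAC, under all 19. *C3* passed in WT TAC against WT sham under 14, with log2 ratios of -0.38 to 1.06, and *C3ar1* in CD3ε-/- TAC against CD3ε-/- sham under 15.

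From WT sham to WT TAC, 1 gene (*Cfb*) passed in place of 3 with 50 CPM added and with a limit of 2 times. From CD3ε-/- sham to CD3ε-/- TAC, 2 in place of 4 passed a limit of 2 times and 7 passed over all CD45+ cells. From WT TAC to CD3ε-/- TAC, 1 (*C4b*) in place of 2 passed a limit of 2 times. From WT sham to CD3ε-/- sham, 1 in place of 0 passed with 1 CPM added (*C3*, higher), with the mean over cells and with cells thinned (*C4b*, lower in both). From WT TAC to the group labelled CD8+T cell-depleted TAC, 1 (*Cfb*) in place of 0 passed with 1 CPM added, with the mean over cells, with cells thinned and without *Saa3* cells. The causes were not tested.

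Of 2385 other values, 1184 stayed within counting error, 1189 moved and 12 turned in sign. *C3* turned over all CD45+ cells, with *Dcn* cells included, to a log2 ratio of -0.38 between WT TAC and WT sham. With gate limits doubled it also turned in *Ccr2*-low cells, to -0.55 between the sham groups. *C1qa* in the *Ly6c2* class turned to 0.48 between the group labelled CD8+T cell-depleted TAC and WT TAC with limits doubled. In the *Ace* class, between CD3ε-/- TAC and WT TAC, *C1qa* turned to 1.10 with limits halved, 0.63 with limits doubled and 0.17 with cells thinned, *C1qc* to 1.00 and 0.041 with limits halved and doubled, and *C3ar1* to 0.22 with limits halved and 0.11 with cells thinned. There too, *C4b* turned to 1.76 in CD3ε-/- TAC against CD3ε-/- sham with limits halved and *C3ar1* to 0.24 between the sham groups with limits doubled.

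No paired analysis was possible because each hashtag group was 1 sample and the labels give no replicate numbers.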
